A study of Mus musculus with 6 samples.

Results

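The genes that code for synaptic adhesion proteins and for the scaffold proteins beneath the postsynaptic membrane were followed in the cortex of fetal mice exposed to bisphenol A (BPA, a plastic monomer with estrogen-like activity). The 37 genes were taken by symbol from the deposited count table of 45583 rows, and all 37 were found. They comprise 20 adhesion genes and 17 scaffold genes. Each library came from the brain cortex of 1 male fetus at GD15.5 (gestational day), and 3 fetuses were from dams given vehicle (peanut oil) and 3 from dams given 50 µg/kg BPA by subcutaneous injection from GD10.5 to GD14.5. All 6 fetuses were of the strain Cyp19-EGFP. In that line an added copy of the aromatase gene Cyp19a1 carries a green fluorescent protein gene. All 6 had the genotype label WT, SRY +, so whether any of them held the added copy is not clear. The labels and the study's methods give GD15.5, while another passage of the study gives a day later in gestation. The question was whether the exposure changed the mRNA level of these genes. The labels name fetuses and not dams, so fetuses of a group may share a litter, and p-values measure only the spread between these fetuses.

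At a synapse, adhesion proteins of the axon bind adhesion proteins of the target cell across the cleft. Neurexins and the receptor phosphatases Ptprd, Ptprs and Ptprf sit on the presynaptic side, and neuroligins, LRRTM proteins, Slitrk proteins and Il1rapl1 are postsynaptic ligands for them. Behind the postsynaptic membrane, the MAGUK proteins coded by Dlg1 to Dlg4 hold receptors and neuroligins, SAPAP proteins (Dlgap genes) join the MAGUKs to Shank proteins, and Homer proteins join Shank to metabotropic receptors. CaM kinase II is an abundant enzyme of excitatory postsynaptic sites, and gephyrin (Gphn) is the scaffold of inhibitory ones. In the cortex most synapses form after birth, and many of these genes are transcribed earlier, while axons grow and neurons settle.

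Total counts ranged from 5030652 to 7180835 in the vehicle libraries and from 3444601 to 6426857 in the BPA libraries, with BPA replicate 3 the shallowest. Levels within a gene are given as CPM, counts scaled to a common library size, on which 3 counts, the most that a count of 0 allows, come to between 0.418 and 0.871 CPM depending on the library (counting error only). To describe the tissue, the CPM of marker genes was summed in each library, with no other tissue for comparison. Dorsal pallium markers summed to 1216 to 1617 CPM with vehicle and 1268 to 1523 CPM with BPA, and neuron markers to 7773 to 8636 CPM and 7699 to 8407 CPM. Markers of the ventral telencephalon and its interneurons summed to 1128 to 1251 CPM with vehicle and to 991 to 1069 CPM with BPA, so these groups did not overlap. Choroid plexus markers summed to 229 CPM in vehicle replicate 2 and 365 CPM in BPA replicate 2, against 12.03 to 19.6 CPM in the other 4 libraries. No marker of any list was at 3 counts or fewer in every library.

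Of the 37 genes, 36 had counts in every library and passed the filter on low counts. Neurexin 2 (Nrxn2, chromosome 19, 6418731 to 6544169, plus strand, GRCm38) was listed at 0 in all 6 libraries and could not be compared. Of 20858 protein-coding symbols in the table, 5070 (24.3%) were likewise at 0 in every library. Exons of Nrxn2 overlap those of Slc22a12 on the opposite strand over 4.94% of their bases, and Slc22a12 was also listed at 0. The cause of the 0 was not tested.

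Levels were compared between genes as CPM per kb of exon, averaged over all 6 libraries (mean ± SD, n = 6). Among the adhesion genes the receptor phosphatase Ptprs was highest at 111 ± 11.1 CPM per kb, followed by the neuroligin of inhibitory synapses, Nlgn2, at 87.5 ± 4.90 CPM per kb. Ptprf at 50.3 ± 2.97 and the nectin-like protein gene Cadm3 at 49.3 ± 2.45 CPM per kb came next and overlapped each other. At the other end stood Lrrtm4 at 1.36 ± 0.193, the contactin gene Cntn4 at 0.688 ± 0.208 and Il1rapl1 at 0.603 ± 0.135 CPM per kb. The 19 adhesion genes with counts thus spanned a 185-fold range. In 11 of the 18 neighbouring pairs in that order the libraries overlapped, among them all pairs in the run from Ptprd at 13.2 ± 1.84 down to Lrrtm2 at 7.26 ± 0.800 CPM per kb.

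**Figure D1:**
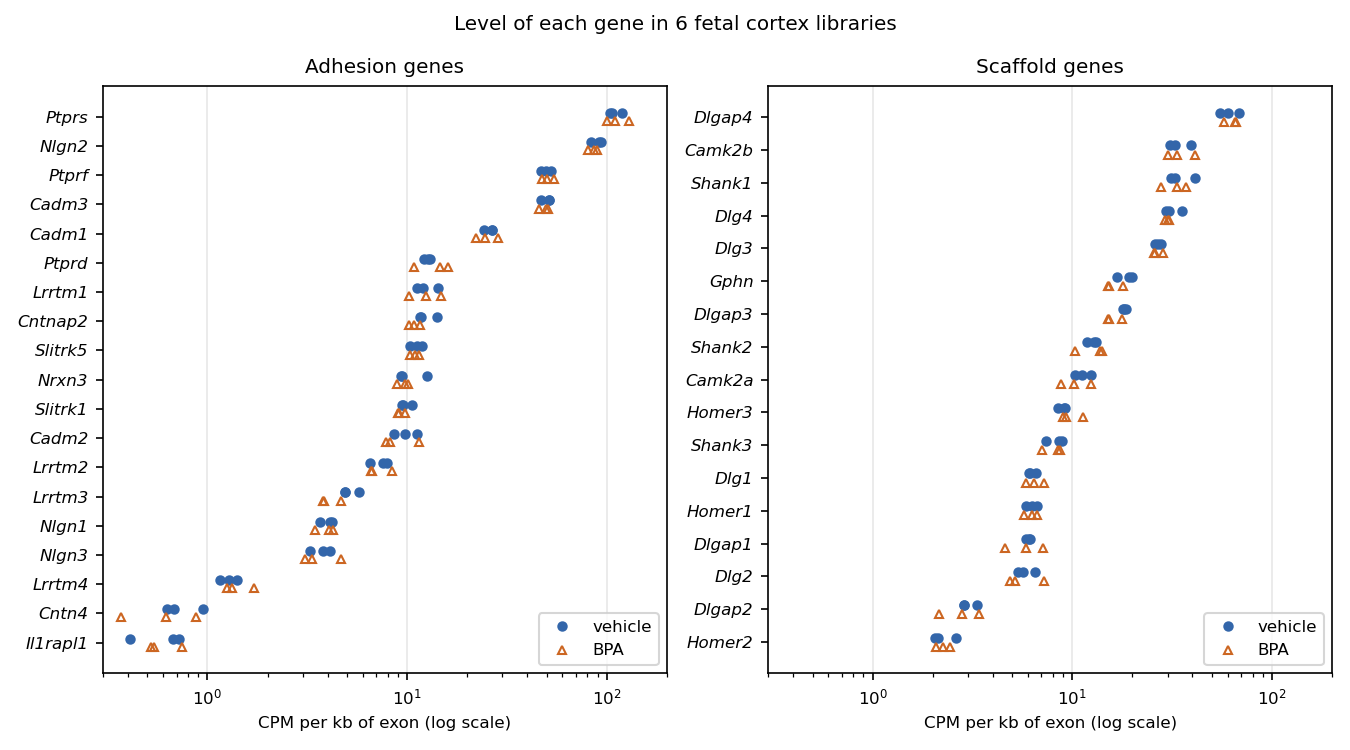
Level of each of the 36 genes with counts in each of the 6 libraries, as CPM per kb of exon on a log axis, adhesion and scaffold genes apart and ordered by the mean over all libraries. Vehicle and BPA points of a gene are drawn on separate rows, and their ranges overlap for all genes except Lrrtm3, Cntnap2 and Dlgap3. The adhesion genes span a wider range (185-fold) than the scaffold genes (27.5-fold).

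The 17 scaffold genes covered a narrower range of 27.5-fold. Dlgap4, a SAPAP gene, was highest at 62.1 ± 5.34 CPM per kb. The beta subunit of CaM kinase II, Camk2b, at 34.6 ± 4.64, Shank1 at 33.9 ± 4.63 and Dlg4, which codes for PSD-95, at 30.8 ± 2.23 CPM per kb formed an overlapping run. Gphn at 17.4 ± 2.02 and Dlgap3 at 17.1 ± 1.51 CPM per kb did not differ beyond their spread. Dlgap2 at 2.90 ± 0.458 and Homer2 at 2.26 ± 0.222 CPM per kb were lowest. The libraries overlapped in 11 of 16 neighbouring pairs. The order depends on the exon length used: by the longest annotated transcript, Homer1 moved from rank 13 to rank 11 and then stood above Homer3, which led its family by exon bases.

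Within families, 1 paralog held most of the summed level in several cases. Nlgn2 made up 92.0% ± 0.972 of the CPM per kb of Nlgn1 to Nlgn3 with vehicle and 91.8% ± 1.26 with BPA (SD, n = 3 each). Camk2b made up 74.98% ± 3.46 of the CaM kinase II pair with vehicle and 77.0% ± 0.341 with BPA, and Camk2a, the subunit that dominates in the adult forebrain, held the rest. Dlgap4 held 69.2% ± 2.41 and 71.7% ± 3.71 of the SAPAP family, Ptprs 63.7% ± 1.18 and 63.6% ± 1.54 of the phosphatases, and Shank1 62.5% ± 2.59 and 61.2% ± 1.48 of the Shank family. The difference between BPA and vehicle in the leading share was at most 2.59 percentage points in the 10 families. Exact two-sided permutation tests gave p from 0.3 to 0.9, adjusted p = 0.9 in all 10 families, in a design that cannot go below 0.1. The difference changed sign in 5 of the 10 families when 1 library was left out. Dlg4 at 44.8% ± 1.95 with vehicle and 43.5% ± 1.16 with BPA, Lrrtm1 at 47.4% ± 3.81 and 49.4% ± 3.83, Slitrk5 at 53.1% ± 3.33 and 53.9% ± 0.926 of the pair with Slitrk1, Cadm3 at 58.3% ± 2.83 and 58.8% ± 3.27, and Homer3 at 51.2% ± 2.03 and 53.8% ± 3.98 led their families by less.

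**Figure D2:**
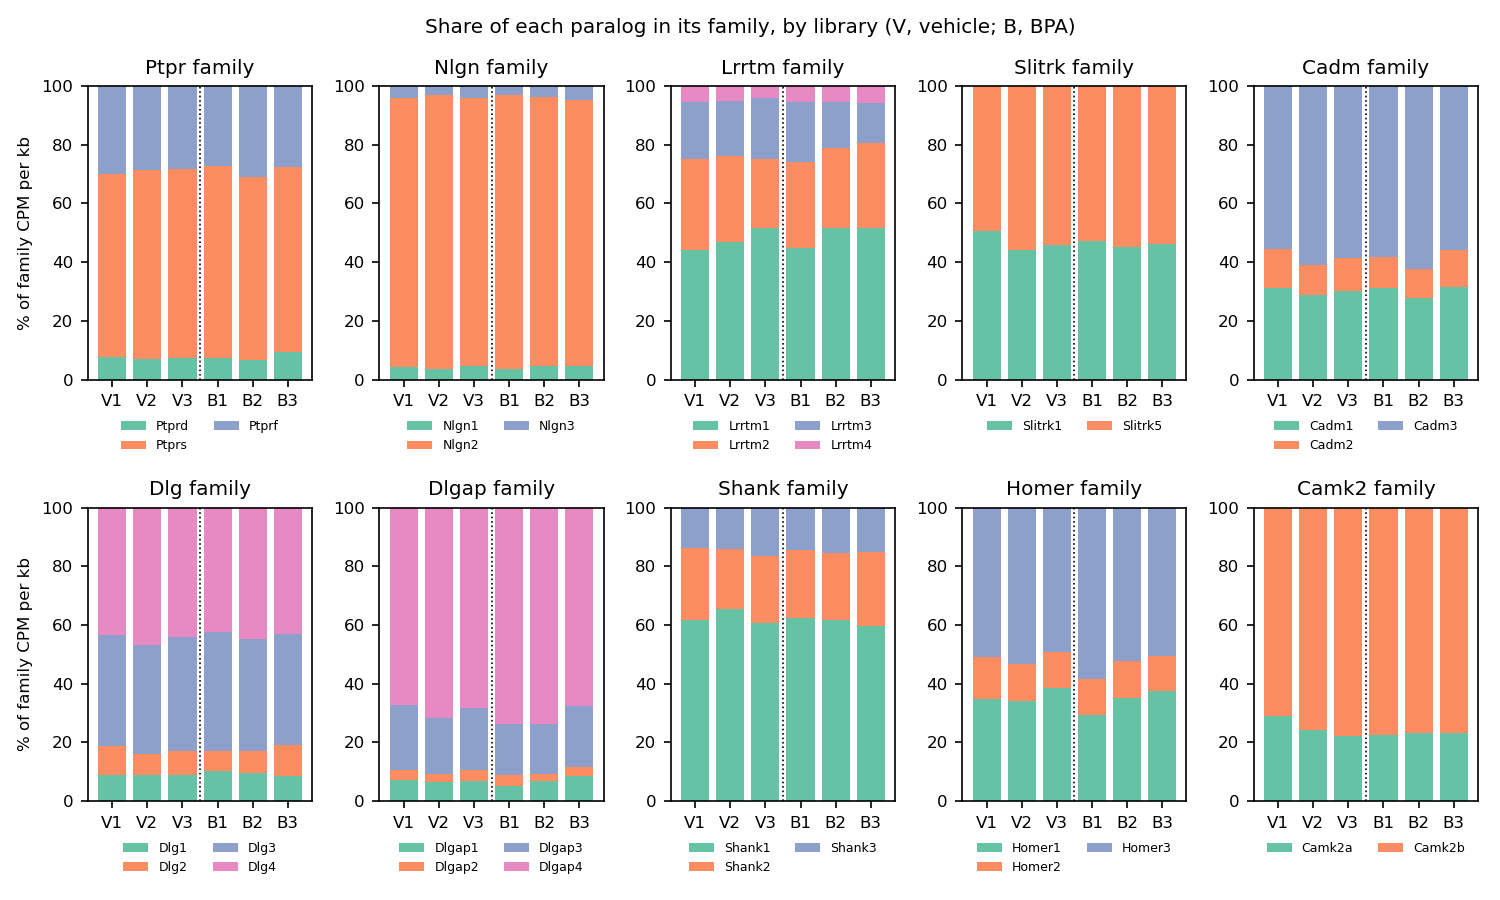
Share of each paralog in the summed CPM per kb of its family (percent, stacked to 100) in each library, vehicle replicates V1 to V3 left and BPA replicates B1 to B3 right of the dotted line. The stacks of the 6 libraries are alike in each family, with Nlgn2 between 90.7% and 93.2% of the neuroligins and Camk2b between 71.2% and 77.9% of the CaM kinase II pair.

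The sequence upstream of the annotated starts was set beside the levels. RefSeq (GRCm38.p6) windows were matched for 28 of the 37 genes, with 46 windows in all, and the 250 bases before each start were searched on both strands. The GC box, GGGCGG, was present for 15 of the 28 genes (53.6%) and for 66.1% of the 9644 genes tested that had a window. A gene was counted if any of its windows held the box, and the number of windows per gene differs. By window the shares were 34.8% of the 46 and 58.5% of the 12455 windows of genes tested. Genes with a GC box had a median level of 17.4 CPM per kb (2.26 to 111) and those without one 5.93 CPM per kb (0.603 to 49.3). Levels were not split this way over all genes tested, so whether the difference is particular to the 28 genes is not known. Median GC content of the 250 bases was 53.8% over the 46 windows of the 28 genes. It was 60.4% over the windows of the genes tested, with each start counted in both. The 100 bases before a start are shown for the highest adhesion genes, for Homer2 as the lowest scaffold gene, and for the 3 genes whose groups did not overlap below, with GC boxes of either strand in capitals:
Ptprs, chr17:56476481-56476580, minus strand: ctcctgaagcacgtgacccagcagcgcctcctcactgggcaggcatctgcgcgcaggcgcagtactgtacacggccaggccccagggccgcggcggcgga
Nlgn2, chr11:69837785-69837884, minus strand: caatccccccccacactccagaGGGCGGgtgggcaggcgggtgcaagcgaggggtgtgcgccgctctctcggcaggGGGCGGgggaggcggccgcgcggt
Homer2, chr7:81706926-81707025, minus strand: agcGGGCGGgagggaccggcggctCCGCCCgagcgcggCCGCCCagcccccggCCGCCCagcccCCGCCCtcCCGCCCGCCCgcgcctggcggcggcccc
Cntnap2, chr6:45059961-45060060, plus strand: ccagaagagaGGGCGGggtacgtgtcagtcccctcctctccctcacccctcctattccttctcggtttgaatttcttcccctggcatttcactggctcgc
Lrrtm3, chr10:64090256-64090355, minus strand: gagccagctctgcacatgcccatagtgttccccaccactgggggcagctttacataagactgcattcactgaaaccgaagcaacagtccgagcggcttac
Dlgap3, chr4:127172780-127172879, plus strand: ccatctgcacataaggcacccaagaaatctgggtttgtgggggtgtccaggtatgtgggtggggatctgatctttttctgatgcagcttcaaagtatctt

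Ptprs, Lrrtm3 and Dlgap3 had no GC box in the window shown, and Ptprs is counted among the genes with one through the window of another start. Homer2 had several. All starts shown except that of Nlgn2 lie inside their gene models, those of Ptprs and Lrrtm3 close to the edge. Homer2 and Cntnap2 also have another window that is not shown. A match or its absence describes these letters only.

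No adhesion gene and no scaffold gene passed the test between BPA and vehicle. By edgeR's quasi-likelihood test with Benjamini-Hochberg adjustment over the 13741 genes tested, 0 of 19 adhesion genes and 0 of 17 scaffold genes passed an adjusted p of 0.1, and 0 genes of the whole table (0%) did so. At an unadjusted p under 0.05 the counts were again 0 of 19 and 0 of 17, where 2.2% of all genes tested were called, 1.18% lower and 1.02% higher with BPA. DESeq2 and limma-voom also called 0 of the 36 genes at that level. The 95% interval of the change lay within 1.5-fold in either direction for 16 of 19 adhesion genes and 17 of 17 scaffold genes, and for 71.2% of all genes tested. The 3 exceptions were Lrrtm3, Cntn4 and Il1rapl1, with counts of 56 to 148, 18 to 55 and 24 to 46 per library. All 36 intervals lay within 2-fold.

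More of the genes were lower than higher with BPA, by small amounts. The log2 fold change was below 0 for 15 of 19 adhesion genes (78.9%) and 12 of 17 scaffold genes (70.6%), where 49.5% of all genes tested were below 0. The median log2 fold change was -0.039 for the adhesion genes, -0.037 for the scaffold genes and 0.0016 for all genes. These counts moved when single libraries of either group were left out. Without BPA replicate 1, 9 of 19 adhesion genes were below 0 and their median was 0.0025. Without BPA replicate 2, 6 of 17 scaffold genes were below 0 and their median was 0.0065. Without BPA replicate 3 the medians were -0.131 and -0.0917. Without vehicle replicate 1, 11 of 19 adhesion genes were below 0 (median -0.016), and without vehicle replicate 2, 10 of 17 scaffold genes (median -0.0046). By role, 3 of 6 presynaptic genes tested were lower, 9 of 10 postsynaptic adhesion genes were lower, and the 3 Cadm genes, which bind across the cleft from both sides, were lower. The median log2 fold changes of these roles were -0.048, -0.036 and -0.045 in that order. The presynaptic median lies between 3 genes below 0 and 3 above, in a range from -0.29 to 0.13.

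**Figure D3:**
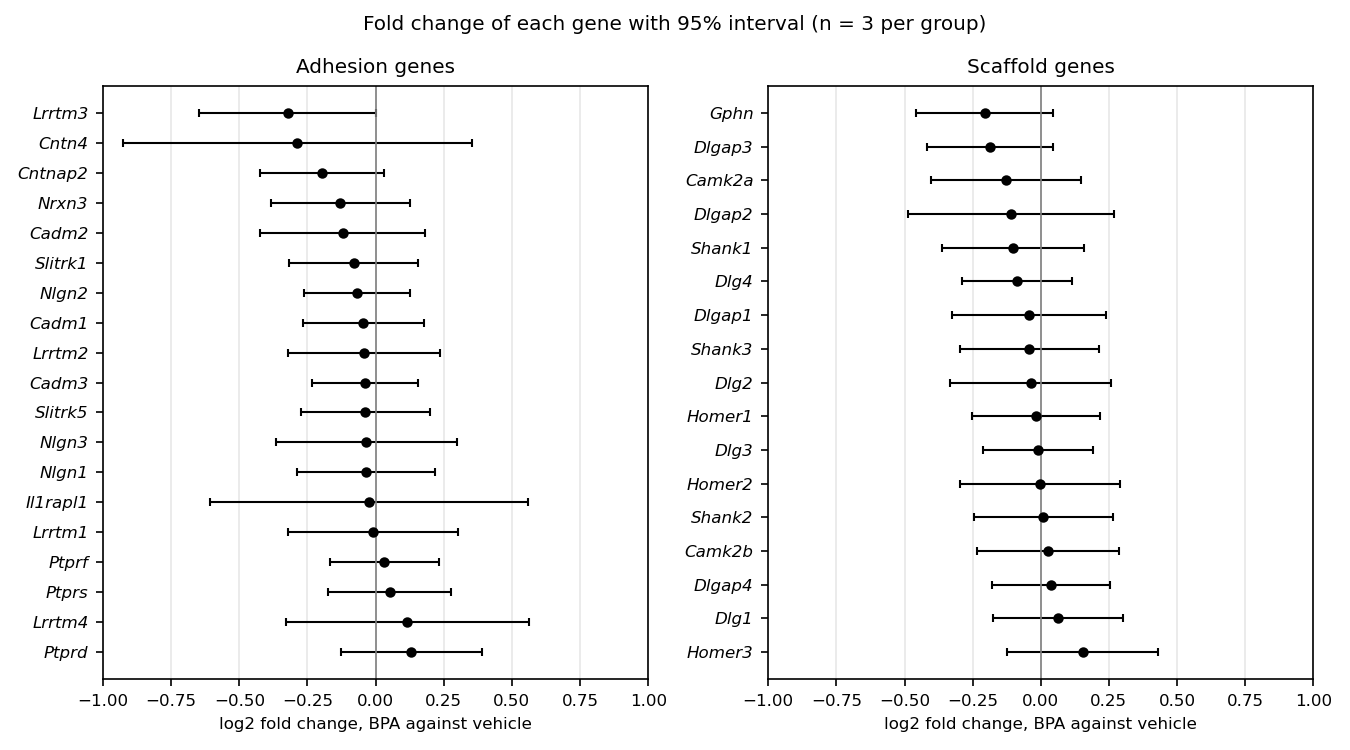
Log2 fold change of BPA against vehicle with its 95% interval from edgeR's quasi-likelihood test for the 36 genes tested, adhesion and scaffold genes apart. Every interval includes 0, and those of Cntn4 and Il1rapl1, which had the fewest counts, are widest.

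The 3 genes whose vehicle and BPA libraries did not overlap were Lrrtm3, Cntnap2 and Dlgap3, all lower with BPA. They are 8.33% of the 36 genes, beside 6.75% of all genes tested whose groups did not overlap, with 3.56% lower and 3.19% higher with BPA. Lrrtm3, a postsynaptic leucine-rich repeat protein gene (chromosome 10, 63928472 to 64090277, minus strand), measured 20.7, 20.8 and 24.5 CPM in vehicle replicates 1 to 3 and 19.8, 16.1 and 16.3 CPM in BPA replicates 1 to 3. The lowest vehicle and the highest BPA library lay less than 1 CPM apart. The log2 fold change was -0.32 (SE 0.152, 95% interval -0.65 to 0.00, unadjusted p = 0.05001, adjusted p = 0.9998 by edgeR).

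Cntnap2 codes for a neurexin-like protein of axons and is among the longest genes of the genome (chromosome 6, 45059357 to 47304213, plus strand). It measured 121, 144 and 120 CPM with vehicle and 105, 119 and 111 CPM with BPA. Vehicle replicate 2 stood above the rest, and the nearest libraries of the groups almost touched. The log2 fold change was -0.20 (SE 0.107, edgeR unadjusted p = 0.0861), and was -0.10 (unadjusted p = 0.359) without vehicle replicate 2. Dlgap3, a SAPAP scaffold gene (chromosome 4, 127169204 to 127237022, plus strand), measured 81.8, 81.1 and 83.6 CPM with vehicle and 69.4, 67.9 and 80.2 CPM with BPA. BPA replicates 1 and 2 were lower than the vehicle libraries and BPA replicate 3 was beside them, with a log2 fold change of -0.19 (SE 0.109, edgeR unadjusted p = 0.106).

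Among the other presynaptic genes, Nrxn3, a neurexin, measured 158, 119 and 117 CPM with vehicle and 122, 112 and 127 CPM with BPA. Vehicle replicate 1 alone was high, and the log2 fold change of -0.13 (SE 0.121, unadjusted p = 0.301) became 0.024 without it. Ptprd measured 296, 289 and 278 CPM with vehicle and 335, 248 and 366 CPM with BPA, so the BPA libraries lay on both sides of the vehicle libraries (log2 fold change 0.13, SE 0.121, unadjusted p = 0.296). Without BPA replicate 2 its unadjusted p was 0.0137, with a log2 fold change of 0.28. Ptprs, the highest gene, measured 1548, 1784 and 1593 CPM with vehicle and 1948, 1509 and 1645 CPM with BPA, with both the highest and the lowest library among the BPA fetuses. Cntn4, an axonal contactin, measured 8.09, 5.77 and 5.32 CPM with vehicle and 3.14, 7.48 and 5.25 CPM with BPA. Its log2 fold change of -0.29 (SE 0.301, unadjusted p = 0.355) was 0.024 without BPA replicate 1, -0.08 without vehicle replicate 1 and -0.70 (unadjusted p = 0.0477) without BPA replicate 2.

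Of the postsynaptic adhesion genes, Nlgn2 measured 528, 543 and 484 CPM with vehicle and 515, 467 and 500.4 CPM with BPA. The groups overlapped, with a log2 fold change of -0.07 (SE 0.091, unadjusted p = 0.457). Nlgn1, the neuroligin of excitatory synapses, measured 55.3, 49.3 and 56.6 CPM with vehicle and 46.5, 54.3 and 57.2 CPM with BPA. Slitrk1 measured 56.5, 50.3 and 51.3 CPM with vehicle and 49.0, 48.4 and 52.5 CPM with BPA (log2 fold change -0.08, SE 0.111, unadjusted p = 0.482). Of the Cadm genes of both sides, Cadm2 measured 110.5, 84.3 and 96.2 CPM with vehicle and 80.9, 76.9 and 112 CPM with BPA, with BPA replicate 3 highest of all (log2 fold change -0.12, SE 0.143, unadjusted p = 0.410). The log2 fold changes of the remaining adhesion genes ranged from -0.05 for Cadm1 to 0.12 for Lrrtm4.

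Among the scaffold genes, Gphn had the smallest p. It measured 62.8, 74.6 and 72.0 CPM with vehicle and 57.3, 67.3 and 56.3 CPM with BPA. Only vehicle replicate 1 fell below the highest BPA library, and the log2 fold change was -0.21 (SE 0.118, 95% interval -0.46 to 0.04, edgeR unadjusted p = 0.10003). Homer3 measured 31.6, 31.4 and 29.2 CPM with vehicle and 39.1, 32.0 and 30.9 CPM with BPA, where BPA replicate 1 alone stood high (log2 fold change 0.15, SE 0.131, unadjusted p = 0.258).

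The CaM kinase II subunits varied more between fetuses than between groups. Camk2a measured 93.0, 77.4 and 83.6 CPM with vehicle and 65.8, 75.9 and 92.5 CPM with BPA (log2 fold change -0.13, SE 0.129, unadjusted p = 0.336). The change was -0.016 without BPA replicate 1 and -0.26 without BPA replicate 3 (unadjusted p = 0.0682). Camk2b measured 280.3, 298 and 360.3 CPM with vehicle and 275, 306 and 376 CPM with BPA, with a high library in each group. Of the MAGUK genes, Dlg4 measured 390.2, 467 and 404 CPM with vehicle and 398, 403 and 388 CPM with BPA. Vehicle replicate 2 alone was high, and the log2 fold change of -0.09 (SE 0.095, unadjusted p = 0.381) was -0.00093 without that library.

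Shank1 measured 345, 433 and 330.1 CPM with vehicle and 388, 292 and 353 CPM with BPA, with overlapping groups (log2 fold change -0.10, SE 0.122, unadjusted p = 0.414). Its sign turned without vehicle replicate 2 (0.030) and without BPA replicate 2 (0.0028). Dlgap2 measured 17.6, 17.6 and 20.5 CPM with vehicle and 21.04, 13.2 and 17.2 CPM with BPA, and its log2 fold change of -0.11 (SE 0.179, unadjusted p = 0.549) was 0.065 without BPA replicate 2. Dlg1 had a log2 fold change of 0.06 (SE 0.113, unadjusted p = 0.587) and was at -0.020 without BPA replicate 1. The other scaffold genes, among them Shank3, Homer1 and Dlg3, had log2 fold changes from -0.04 for Dlgap1 to 0.04 for Dlgap4.

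For most of the genes little of the spread between libraries lay between the groups. The share of a gene's log2 variance over the 6 libraries that lay between the groups had a median of 7.89% for the adhesion genes and 2.96% for the scaffold genes, against 8.78% for all genes tested. The SD within groups had a median of 0.153 on the log2 scale for each class and 0.177 for all genes. BPA replicate 3, the shallowest library, was the highest of the 6 for 9 of 19 adhesion genes. BPA replicates 1 and 2 were lowest for 7 and 8 of the 19. Among the scaffold genes BPA replicate 3 was highest for 5 and lowest for 4 of 17, and BPA replicates 1 and 2 were lowest for 5 each. How often each library was highest or lowest over all genes tested was not counted.

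Summarised per library as the mean deviation of log2 CPM from each gene's own mean, the adhesion genes stood at 0.089, -0.015 and 0.010 in vehicle replicates 1 to 3 and at -0.104, -0.081 and 0.101 in BPA replicates 1 to 3. The scaffold genes stood at 0.00059, 0.044 and 0.022 with vehicle and at -0.014, -0.092 and 0.041 with BPA. By this mean BPA replicate 3 was the highest or next to highest library for both classes and BPA replicate 2 was low for both. For the scaffold genes the median deviation in BPA replicate 3 was -0.0046, with 8 of 17 genes above their own mean. Neuron markers stood at 0.070, -0.060 and 0.112 with vehicle and -0.162, -0.0068 and 0.046 with BPA, with 9 of 10 markers lower in BPA. Ventral telencephalon markers stood at 0.191, 0.233 and 0.066 with vehicle and -0.216, -0.062 and -0.212 with BPA, with 10 of 10 lower. Glia markers were lower for 6 of 6 (median log2 fold change -0.25) and progenitor markers for 6 of 10 (median -0.0090). Markers of cortical excitatory neurons went the other way, with 6 of 8 higher (median 0.069), as did those of the dorsal pallium, with 6 of 7 higher (median 0.021). Their part in the levels of the adhesion and scaffold genes was not tested, and in tissue fewer cells of a type and less RNA per cell cannot be told apart.

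**Figure D4:**
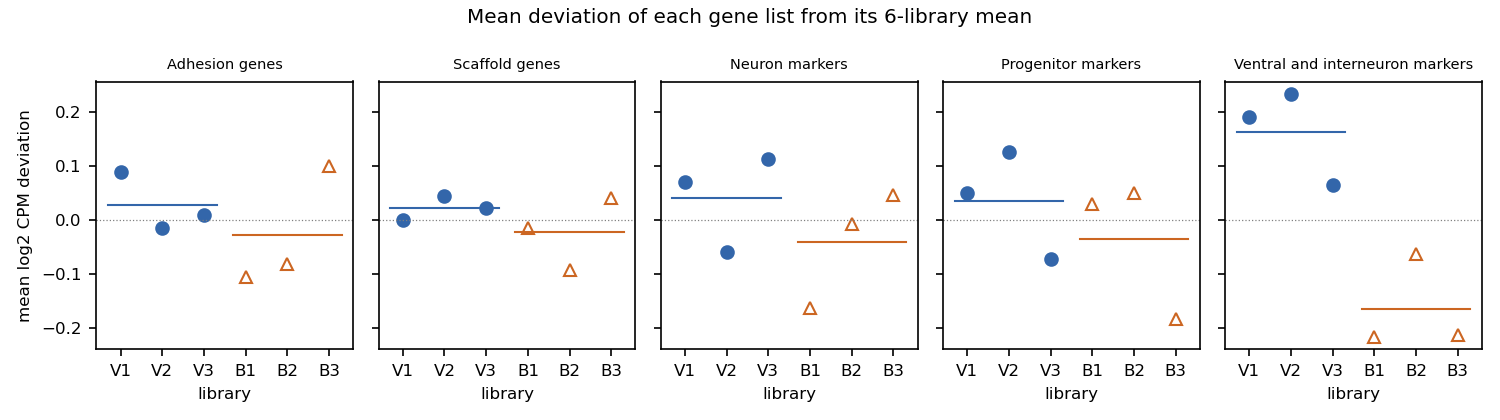
Mean deviation of log2 CPM from each gene's own mean over the 6 libraries, per library, vehicle and BPA apart. Shown are the adhesion genes, the scaffold genes and the markers of neurons, progenitors, and the ventral telencephalon with its interneurons. The adhesion and scaffold genes overlap between groups, with BPA replicate 3 at 0.101 and 0.041, while the ventral telencephalon markers do not.

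Related genes outside the 37 were read from the same fit. Over all genes tested in it, 49.5% were lower with BPA and 2.2% had an unadjusted p under 0.05 by edgeR. Of 49 further adhesion genes (other contactins, Slitrk, Lrfn, latrophilin, teneurin, FLRT and calsyntenin genes and their ligands), 48 were tested, 28 were lower (58.3%) and 20 higher with BPA, the median log2 fold change was -0.055, and 1 (2.08%) had an unadjusted p under 0.05. That gene was Ntrk3, a neurotrophin receptor that also binds Ptprs, at 62.9, 65.5 and 59.2 CPM with vehicle and 74.9, 69.1 and 89.0 CPM with BPA (log2 fold change 0.30, SE 0.118, unadjusted p = 0.0212, adjusted p = 0.9998 by edgeR). The next were Elfn1 (log2 fold change -0.31, unadjusted p = 0.0630 by edgeR) and Cntnap5a (-0.42, unadjusted p = 0.0741 by edgeR). Of 36 further scaffold genes, all were tested, 20 were lower (55.6%) and 16 higher, the median was -0.015, and 0 had an unadjusted p under 0.05. The smallest p values among them were those of Camk2d (log2 fold change -0.21, unadjusted p = 0.0956), Dynll2 (-0.15, unadjusted p = 0.133) and Lrrc7 (0.20, unadjusted p = 0.153), all by edgeR.

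The genes are long, with a median span of 106 kb over the 36 tested, against 23.7 kb over the 13126 annotated genes tested. Over 100 kb were 19 of 36 (52.8%) and 15.54% of all genes. The 19 long genes had a median log2 fold change of -0.037, with 14 lower, and the 17 shorter ones -0.039, with 13 lower. For all genes the medians were -0.0060 above 100 kb and 0.0032 below. The quartiles of the long genes, -0.12 and 0.0039, and of the shorter ones, -0.080 and -0.0088, overlapped.

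Exons of 17 of the 37 genes overlap those of another annotated gene, 4 of them over more than 5% of their bases. Nlgn3 shares 40.9% of its 50-base transcript words with Gm21986 on the same strand, which had 6 to 13 counts per library where Nlgn3 had 148 to 259. Exons of Homer3 overlap those of Ddx49, which had 129 to 265 counts per library, on the opposite strand over 25.4% of their bases. Lrrtm4 is overlapped over 25.1% by Gm4409 (0 to 1 counts) and Nlgn1 over 9.16% by A830092H15Rik (1 to 6 counts), both on the opposite strand. In the other genes the overlap was at most 4.98%, that of Cadm3 with Ackr1, and in Lrrtm2 it was 1.58%, with Ctnna1, which had 469 to 1197 counts where Lrrtm2 had 173 to 325. The levels of overlapped genes are therefore uncertain, since whether the counting used strand or reads that align to several places is not given in the sources used here.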

How the data were processed

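Cortex RNA of 6 fetuses, 3 per group, was sequenced from strand-specific libraries as single-end reads of 50 bases. According to the submitters' processing notes and the study's methods, reads were aligned with TopHat2 2.0.14 to GRCm38, StringTie 1.2.4 was used, and reads were counted on GENCODE genes with featureCounts. The authors deposited these as raw counts per gene, which are not normalized. Groups came from the labels, and replicate numbers only name samples.

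Counts were analysed in R 4.3.3 with edgeR 4.0.16. The function filterByExpr (minimum count 10, minimum total 15) kept 13741 genes with 99.7% of counts. The study's methods name edgeR, TMM scaling and a Benjamini-Hochberg rate of 0.1, which were followed, with adjustment over all genes tested. The quasi-likelihood test without covariates was chosen here. CPM used TMM-scaled library sizes, and CPM per kb the exon bases of GENCODE M21, which matched 13126 of the genes tested. Library scores used a prior count of 2. Family shares were compared with an exact permutation test (two-sided, libraries permuted between groups). Intervals of fold changes are at the 95% level, and the floor of 3 counts covers counting error only. Alternatives were DESeq2 1.42.0, limma-voom (limma 3.58.1), robust dispersion, 2 other scalings, 2 other filters, the longest transcript as gene length, and omission of each library in turn. The fit was tested on simulated data.

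The 37 genes and all gene lists were chosen with earlier results of these data known. Fold changes are given for the 8 adhesion and 8 scaffold genes with the smallest unadjusted p and for the 3 such genes of each list of related genes. Other genes are given by level or range, and those outside this rule as examples chosen after their values were seen. Protein sequences were not analysed here.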

Additional observations from a re-analysis of the deposited data

How the results depend on the processing

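No adhesion or scaffold gene passed the adjusted threshold under any of the 13 alternatives. The whole table gave 3 genes with DESeq2 and 19 without the low count filter in place of 0, and 0 to 1 when a library was left out. At an unadjusted p under 0.05 it gave 126 genes with DESeq2, 620 without the filter, 162 with at least 10 CPM in 3 libraries, and 194 to 708 with a library left out, against 302. At that level 1 adhesion gene (Lrrtm3) was called with DESeq2 size factors in edgeR and 0 to 2 with a library left out (Lrrtm3 without BPA replicate 1 and without either of vehicle replicates 1 and 2, Ptprd and Cntn4 without BPA replicate 2, Cadm2 without BPA replicate 3). Of the scaffold genes, 0 to 1 were called with a library left out (Gphn without vehicle replicate 1 or BPA replicate 2, Dlgap3 without BPA replicate 3). Of all genes tested, 301 of 13741 were called with DESeq2 size factors in edgeR. The count was 346 of 13925, 708 of 13886 and 194 of 14012 without vehicle replicates 1, 2 and 3 in turn. Without BPA replicates 1, 2 and 3 in turn the count was 194 of 13884, 563 of 14010 and 317 of 14037. Of the related adhesion genes 3 were called without the filter and 0 to 3 with a library left out, and of the related scaffold genes 0 to 1. With a library left out, the median log2 fold change ran from -0.13 to 0.0025 for adhesion and from -0.092 to 0.0065 for scaffold genes. The ranges that included a change of sign were -0.20 to 0.024 for Nrxn3, -0.70 to 0.024 for Cntn4, -0.20 to 0.030 for Shank1, -0.31 to 0.065 for Dlgap2 and -0.020 to 0.13 for Dlg1. The other named genes kept their sign, from -0.44 to -0.25 for Lrrtm3, -0.25 to -0.10 for Cntnap2, 0.017 to 0.28 for Ptprd, -0.30 to -0.016 for Cadm2, -0.12 to -0.032 for Nlgn2, -0.11 to -0.026 for Slitrk1, -0.30 to -0.15 for Gphn, -0.26 to -0.14 for Dlgap3, 0.034 to 0.21 for Homer3, -0.26 to -0.016 for Camk2a and -0.14 to -0.00093 for Dlg4. For the leading share of a family they were, in percentage points, -0.947 to 0.578 for Ptprs, -0.905 to 0.346 for Nlgn2, -1.11 to 2.13 for Slitrk5, -1.28 to 1.95 for Cadm3 and -2.33 to 0.104 for Shank1. Why these values moved was not tested. No paired analysis was possible because the labels give no replicate numbers shared between the groups. Cntn4 and Il1rapl1 had the fewest counts and the widest intervals, and whether depth set these was not tested.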
